A study of Homo sapiens with 12 samples.

Results

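Mitomycin C (MMC) is a drug that crosslinks DNA strands, and the response to it was read in the cytoplasmic RNA of Cal51, an established human breast carcinoma cell line. The comparison was made between 3 Illumina bead arrays of cells given control siRNA and no drug and 3 arrays of cells given control siRNA and MMC, which are 6 of the 12 arrays in the series. All cells of these groups had been transfected with the same control siRNA and were harvested 72 hours later, and the treated cells spent the last 24 hours in the drug. The dose of MMC is not given in the sources used here. The other 6 arrays, from cells given an siRNA against the kinase IPMK (siIPMK) with and without MMC, were used to set the size of each change beside a separate set of arrays. No probe was named IPMK, so its depletion could not be checked here. RNA was taken after the plasma membrane had been opened with digitonin, so nuclear transcripts were largely outside the measurement. The titles number the arrays as experiments 1 to 3 in every group, and each MMC array was compared with the untreated array of its own experiment. Whether the experiments were separate cultures is not stated, so the p-values measure only the spread between these arrays. All values come from 1 cell line, and in bulk RNA a loss of some of the cells and a lower level in each cell cannot be told apart.

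Crosslinks between the strands stop replication forks and are unhooked by the Fanconi anaemia proteins, nucleotide excision repair, translesion polymerases and homologous recombination. The damage activates the kinases ATR and ATM, which stabilise the transcription factor p53. p53 then raises genes that halt the cell cycle, repair DNA, tune metabolism or kill the cell, together with the inhibitors MDM2 and PPM1D that switch p53 off again. Many cell cycle genes are lowered through the repressor complex DREAM.

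Between 12122 and 12542 probes were detected on the untreated arrays and between 12468 and 12687 on the MMC arrays. Across genes, arrays of the same group correlated at r of 0.9875 to 0.9933. The first principal component of the 6 arrays held 38.4% of the variance and separated treatment, with untreated arrays at -15.89 to -10.43 and MMC arrays at 11.43 to 12.92. The second component held 30.3% and separated experiment 1 from the other experiments. Of 12 epithelial markers, 7 were measured and 6 of them were detected on all 6 arrays, among them the keratins KRT8, KRT18 and KRT19. There was no kept probe named CDH1, CLDN4, CLDN7, ESRP1 or OCLN. Of 15 fibroblast and endothelial markers 5 were measured, 3 of them detected on all 6 arrays, and of these COL1A2, a collagen chain, lay at log2 10.04 to 10.48. Of 12 leukocyte markers only CD68, a lysosomal protein of macrophages, was measured, and it was detected on 5 of the 6 arrays.

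With MMC, 581 of the 9409 genes tested were higher, which is 6.17%, and 369 were lower, which is 3.92%, at an adjusted p under 0.05. Rises were larger than falls. The median rise was 0.51 on the log2 scale and the median fall was -0.37. Of the rises 81 reached 2-fold (0.861% of all genes), and of the falls 1 did (0.0106%). Over all genes the median change was -0.016. The untreated and MMC arrays did not overlap for 2017 genes, 21.4% of those tested. Changes in the 3 experiments correlated across genes at r of 0.475 to 0.539, and genes are not independent replicates. Without the terms that pair the arrays, 184 genes were higher and 10 were lower. Of the 177 genes examined by name, 84 passed with the pair terms and not without them. Leaving out both control siRNA arrays of any 1 experiment gave 322 to 366 rises and 115 to 137 falls, and scaling by the median gave 334 and 290. Without experiments 1, 2 and 3 in turn, 50, 48 and 48 of the 177 genes examined by name lost their call.

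p53 target genes were listed in 5 groups by role, and the lists were chosen with earlier results of these data known. Of 112 listed genes 92 were measured, 64 were higher, 1 was lower and 27 did not pass, with a median change of 0.66. The medians in experiments 1, 2 and 3 were 0.68, 0.65 and 0.61. The measured p53 targets were 0.978% of the genes tested and 11% of the rises, and 24 of them reached 2-fold. Outside the lists 57 rises reached 2-fold. Since the lists were chosen with results known, these shares are no test of a p53 response. Without the pair terms 41 of the 92 were higher. No kept probe carried the names FAS, BBC3 or BTG2.

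The group of arrest and stress targets held 20 measured genes, of which 17 were higher and 0 lower, with a median change of 0.85. CDKN1A, the cyclin-dependent kinase inhibitor p21, was at log2 12.12, 12.17 and 12.09 in untreated experiments 1 to 3 and at 14.13, 14.18 and 13.98 with MMC. The 3 MMC arrays lay close together and far above the untreated ones, and CDKN1A rose 3.92-fold (log2 change 1.97 ± 0.09, moderated SE, n = 3 pairs, adjusted p = 4.37e-14). Each SE given here comes from the fit to all 12 arrays, moderated across genes. It is not the spread of a gene's own 3 pairs. GDF15, a secreted stress cytokine, was at 8.50, 8.20 and 7.94 untreated and at 11.26, 10.87 and 10.41 with MMC. Experiment 1 was highest and experiment 3 lowest in both groups, and GDF15 rose 6.20-fold (2.63 ± 0.11, adjusted p = 2.05e-14). It was the largest rise of any gene tested. INKA2, an inhibitor of the kinase PAK4, was at 6.46, 6.88 and 6.48 untreated, where 1 of 3 arrays detected it, and at 9.01, 9.32 and 9.31 with MMC. The groups did not overlap, and INKA2 was called as higher with a fitted change of 2.61 ± 0.13 (adjusted p = 1.23e-13), or of 1.61 in the authors' processed values. GADD45A, which binds PCNA and slows the cycle at the G2 to M step, went from 10.54, 10.19 and 10.04 to 11.50, 11.46 and 11.36, a rise of 1.19 ± 0.10 (adjusted p = 3.26e-09). SFN, the 14-3-3 sigma protein that holds cyclin B1 complexes in the cytoplasm, rose by 1.02 ± 0.12. TOB1, an antiproliferative protein, rose by 1.21 ± 0.09. ZMAT3, an RNA-binding zinc finger protein, was at 10.29, 10.54 and 10.57 untreated and at 11.38, 11.66 and 11.41 with MMC, a rise of 1.01 ± 0.09. Of its other probes 1 rose by 1.22 and 1 fell by 0.36 (adjusted p = 0.0333), and ZMAT3 was the 1 gene whose probes passed in opposite directions. PLK2, a stress-responsive kinase, rose by 0.56 ± 0.10, and ATF3, a stress transcription factor, by 0.94 ± 0.18, from 7.20, 5.92 and 6.25 to 8.48, 7.09 and 6.62, with overlapping groups. PLK2, ATF3 and E2F7 did not pass without the pair terms.

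**Figure D1:**
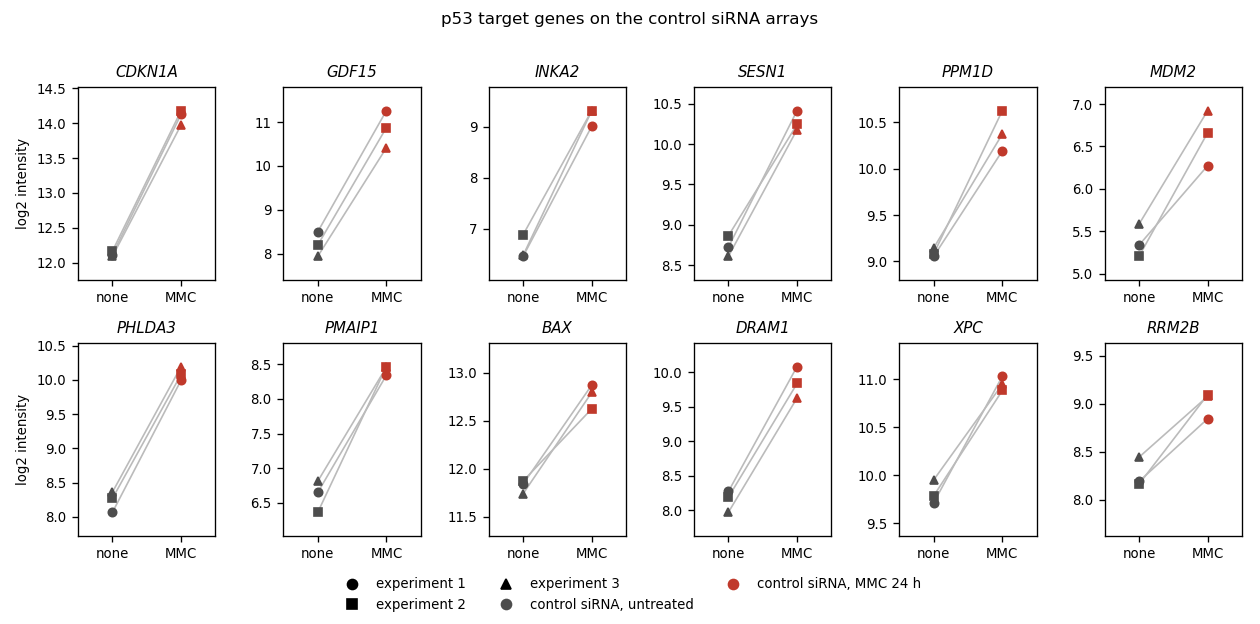
Normalized log2 intensity of 12 p53 target genes on the 6 control siRNA arrays, untreated (grey) and after 24 hours of MMC (red), with a symbol per experiment and a line joining the arrays of an experiment. The y axes differ in position and each spans at least 2 log2 units. The MMC arrays lie above the untreated arrays in every panel, by 2.63 for GDF15 and by 0.74 for RRM2B on average.

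Among feedback inhibitors of p53 and the sestrins 7 of 11 measured genes were higher and 0 lower, with a median of 1.10, or 0.419 in the authors' processed values. PPM1D, the phosphatase that reverses ATM signalling, was at 9.06, 9.08 and 9.15 untreated and at 10.19, 10.63 and 10.37 with MMC. The 3 untreated arrays were nearly equal and the groups did not overlap, and PPM1D rose by 1.30 ± 0.10 (adjusted p = 1.53e-09). MDM2, the ubiquitin ligase that degrades p53, was dim. It was detected on 0 of 3 untreated arrays (5.34, 5.20 and 5.58) and on 2 of 3 MMC arrays (6.27, 6.66 and 6.92), so the fitted rise of 1.25 ± 0.23 (adjusted p = 5.53e-04) gives a bound of at least 1.05-fold. In the authors' processed values the MDM2 rise was 0.38. Bounds here set the MMC mean against the dimmest detected probe of each untreated array. SESN1, an antioxidant sestrin that restrains the growth kinase complex mTORC1, was at 8.72, 8.87 and 8.61 untreated and at 10.41, 10.24 and 10.18 with MMC, and rose by 1.54 ± 0.10 (adjusted p = 2.06e-11). SESN2, its paralog, was not detected untreated and was at least 1.47-fold higher. TRIM22, an interferon-inducible ubiquitin ligase that is also a p53 target, rose by 1.12 ± 0.15, or by 0.59 in the authors' processed values. CCNG1, the cyclin G1 that works with PP2A on MDM2, rose by 0.50 ± 0.09 and did not pass without the pair terms. TP53INP1, a cofactor of p53 in death and autophagy, rose by 1.22 ± 0.10.

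Death targets rose at 14 of 21 measured genes, with a median of 0.56, and 1 fell. PHLDA3, which blocks the kinase AKT at the membrane, was at 8.07, 8.27 and 8.36 untreated and at 9.997, 10.08 and 10.20 with MMC, a rise of 1.86 ± 0.10 (adjusted p = 1.22e-12). PMAIP1, the BH3-only protein NOXA, was at 6.65, 6.36 and 6.81 untreated, detected on 2 of 3 arrays, and at 8.34, 8.47 and 8.46 with MMC. Its 3 MMC arrays differed by less than the untreated ones, and it rose by 1.82 ± 0.12 (adjusted p = 7.32e-11). In the authors' processed values the PMAIP1 rise was 1.01. TP53I3, a quinone oxidoreductase, rose by 1.56 ± 0.10 from 8.82, 8.86 and 8.82 to 10.19, 10.57 and 10.43. BAX, the pore-forming protein of the mitochondrial outer membrane, was at 11.84, 11.87 and 11.74 untreated and at 12.87, 12.63 and 12.79 with MMC, a rise of 0.94 ± 0.08 (adjusted p = 4.80e-09). The groups did not overlap for any of these 4 genes. TNFRSF10B, the death receptor DR5, rose by 0.73 ± 0.09, and AEN, a nuclease that enters the nucleus of dying cells, rose by 1.01 ± 0.09. APAF1, the scaffold of the apoptosome, rose by 0.56 ± 0.10 on the probe used (adjusted p = 2.26e-04), and over the mean of its probes the change was 0.32 (adjusted p = 0.12). SIVA1, an adaptor of death receptors, went the other way, from 12.42, 12.14 and 12.26 to 12.05, 11.93 and 12.06, a fall of 0.26 on the log2 scale (adjusted p = 0.0305). Over the mean of its probes the SIVA1 change was -0.155 (adjusted p = 0.182). On the probe used, the MMC arrays of SIVA1 all lay below the untreated ones, and TNFRSF10B, APAF1 and SIVA1 did not pass without the pair terms. In the list of BCL2 proteins, which overlaps with the death targets, 2 of 15 measured genes were higher, BAX and PMAIP1, and 0 were lower. Of all genes tested 6.17% were higher and 3.92% lower.

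Autophagy and metabolic targets held 30 measured genes, of which 19 were higher and 0 lower, with a median of 0.48. DRAM1, a lysosomal membrane protein that promotes autophagy, was at 8.28, 8.19 and 7.97 untreated and at 10.08, 9.84 and 9.62 with MMC. It rose by 1.70 ± 0.09 (adjusted p = 8.03e-13), and experiment 1 was highest and experiment 3 lowest in both groups. KITLG, the ligand of the receptor KIT, rose by 1.65 ± 0.15 and was detected on 2 of 3 untreated arrays. In the authors' processed values the KITLG rise was 0.99. CMBL, a hydrolase, went from 11.11, 11.14 and 10.93 to 12.15, 12.40 and 12.39, a rise of 1.25 ± 0.09. TIGAR, a fructose bisphosphatase that diverts sugar into the pentose phosphate pathway, rose by 1.00 ± 0.09, and NINJ1, which ruptures the membrane of dying cells, by 0.99 ± 0.08. Smaller rises were those of RETSAT, a retinol saturase, at 0.87 ± 0.14, GPX1, a glutathione peroxidase, at 0.68 ± 0.08, and SLC12A4, a potassium and chloride cotransporter, at 0.59 ± 0.16. The calls in this group other than that of SLC12A4, among the genes named, held without the pair terms.

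Of 10 measured repair and nucleotide targets, 7 were higher and 0 lower, with a median of 0.59. XPC, which recognises distorted DNA in nucleotide excision repair, was at 9.72, 9.79 and 9.95 untreated and at 11.03, 10.88 and 10.95 with MMC. The MMC arrays differed little from each other, and XPC rose by 1.13 ± 0.10 (adjusted p = 3.85e-09). FBXO22, a ubiquitin ligase subunit, rose by 0.88 ± 0.10, and RPS27L, a ribosomal protein paralog, by 0.67 ± 0.08 from 14.32, 14.40 and 14.45 to 15.07, 14.98 and 15.13. RRM2B, the p53-inducible subunit of ribonucleotide reductase, was at 8.19, 8.17 and 8.44 untreated and at 8.84, 9.09 and 9.08 with MMC. The groups did not overlap and RRM2B rose by 0.74 ± 0.11 (adjusted p = 6.23e-05). RRM2B, PCNA and ERCC5 did not pass without the pair terms. DDB2, the damaged-DNA-binding subunit, was not detected untreated (5.69, 6.30 and 6.53) and was detected on all 3 MMC arrays (6.90, 7.19 and 7.15), at least 1.45-fold higher (adjusted p = 0.00259). Without experiment 1 the DDB2 change was 0.75 (adjusted p = 0.0618). PCNA, the sliding clamp of DNA polymerases, rose by 0.52 ± 0.08 on the brightest of its 3 probes (adjusted p = 3.13e-05), while the mean over its probes was 0.21 (adjusted p = 0.118). POLH, the translesion polymerase eta, changed by 0.48 ± 0.17 and did not pass (adjusted p = 0.0743), although its arrays did not overlap, from 6.43, 6.79 and 6.51 to 6.90, 7.20 and 7.06.

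Promoter sequence was set beside these rises, since p53 binds DNA directly. The RefSeq table (GRCh38.p14) gives 250 bases before to 50 after each gene's start, and 7824 of the genes tested matched it, 474 of them rises and 304 of them falls. The p53 half-site consensus, searched on both strands with no mismatch, occurred in 6.63% of the 35116 promoter windows. By gene it occurred in 7.41% of the genes tested, in 57 of the 474 rises, in 6.91% of the falls and 22.6% of the p53 targets that rose (12 of 53). Among rises outside the p53 lists the share was 10.7%. A pair of half-sites, with at most 1 mismatch in each, outside its core, and at most 13 bases between them, occurred in 0.984% of the genes tested, 1.05% of the rises, 0.329% of the falls, 3.77% of the p53 targets that rose (2 of 53) and 0.713% of the other rises. TATAAA, the TATA box, occurred in 8.21% of the genes tested and 13.7% of the rises. CCAAT occurred in 44.4% of the genes tested, 43.5% of the rises and 41.8% of the falls. The CHR element through which DREAM binds (TTTGAA or TTCGAA) occurred in 15.6% of the genes tested, 15.8% of the rises and 16.8% of the falls. An E2F site (TTT, then 2 bases that are each C or G, then CGC) occurred in 6.83%, 5.06% and 8.55% of these. Among the p53 targets that rose, the E2F site occurred in 15.1% (8 of 53), TATAAA in 13.2%, the CHR element in 18.9% and CCAAT in 45.3%. A share above that of the genes tested was thus not particular to the p53 half-site. The pair is built of the half-site, the letters of the other motifs do not contain one another, and a match describes the sequence only. Shown here are 8 p53 targets that rose and whose exact half-site, with 20 bases on each side, lies before the start. Not every promoter window was searched for this set, so it may be incomplete. The half-site is in capitals, and each sequence runs 5′ to 3′ on the strand of its gene.
SESN1 (chr6:109009008-109009057, strand -): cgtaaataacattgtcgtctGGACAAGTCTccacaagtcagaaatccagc
AEN (chr15:88621286-88621335, strand +): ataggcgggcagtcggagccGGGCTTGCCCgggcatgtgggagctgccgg
RETSAT (chr2:85354559-85354608, strand -): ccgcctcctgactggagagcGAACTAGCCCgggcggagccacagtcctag
GPX1 (chr3:49358501-49358550, strand -): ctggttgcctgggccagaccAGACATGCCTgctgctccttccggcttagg
RPS27L (chr15:63157507-63157556, strand -): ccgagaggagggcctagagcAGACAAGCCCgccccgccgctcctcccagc
SLC12A4 (chr16:67964092-67964141, strand -): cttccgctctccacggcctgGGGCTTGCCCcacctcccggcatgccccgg
PLK2 (chr5:58460189-58460238, strand -): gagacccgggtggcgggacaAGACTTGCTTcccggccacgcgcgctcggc
PCNA (chr20:5120155-5120204, strand -): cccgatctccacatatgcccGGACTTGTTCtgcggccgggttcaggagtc

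In SESN1, whose level rose by 1.54, the half-site begins 49 bases before the start, and in AEN, which rose by 1.01, it begins 34 bases before. In PCNA, whose probes disagreed, it begins 226 bases before the start. CDKN1A, GDF15 and MDM2 are not in the set shown.

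Outside the p53 lists 57 genes rose by at least 2-fold. Of the 15 largest rises, 5 were in the p53 lists (GDF15, INKA2, CDKN1A, PHLDA3 and PMAIP1). DPYSL4, a protein of the dihydropyrimidinase family, was at 7.39, 7.36 and 7.55 untreated and at 9.39, 9.40 and 9.33 with MMC, and rose by 1.94 ± 0.10 (adjusted p = 5.63e-13). The MMC arrays lay within a narrow band. SYTL1, an effector of the vesicle GTPase RAB27, had a fitted rise of 1.78 ± 0.17, or of 0.875 in the authors' processed values. It was detected on 1 of 3 untreated arrays. The other 8 were detected on no untreated array and on all 3 MMC arrays. Among these, UBASH3B, a tyrosine phosphatase, was at 6.23, 6.32 and 6.39 untreated and at 8.13, 8.35 and 8.09 with MMC, at least 3.12-fold higher. MYBPHL, related to a myosin-binding protein of muscle, was at 6.14, 5.77 and 5.96 untreated and at 8.06, 8.23 and 8.04 with MMC, at least 2.96-fold higher. DENND2D, an exchange factor for RAB GTPases, was at least 2.51-fold higher. ALG1L1P, a pseudogene, was at least 1.68-fold higher, and CFAP144, a protein of cilia, at least 1.56-fold. RGS16, which turns off G proteins, was at least 1.48-fold higher, GAS6, a ligand of the TAM receptors, at least 1.45-fold, and CELP at least 1.28-fold. CELP is a pseudogene of the carboxyl ester lipase CEL, whose own probe was at least 1.97-fold higher, and the probes of such near copies may read each other's transcripts. In all, 71 of the 581 rises were detected on no untreated array and 43 of these on all 3 MMC arrays, with 42 bounds from 1.06 to 3.12-fold. CROT, the peroxisomal carnitine octanoyltransferase, was well detected and rose by 1.45 ± 0.09, from 8.74, 8.93 and 8.89 to 10.16, 10.53 and 10.24.

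Falls were small. Of 369, 32 reached 1.5-fold, against 236 of the rises, and several of the largest were near the detection limit. MIX23, a protein of the mitochondrial intermembrane space, was the largest fall among genes detected on all 6 arrays. It was at 10.74, 10.91 and 10.93 untreated and at 9.76, 9.91 and 10.16 with MMC, 1.89-fold lower (log2 change -0.92 ± 0.10, adjusted p = 2.77e-07). WDR24, a subunit of the GATOR2 complex that signals amino acids to mTORC1, had the lowest fitted change at -1.14 ± 0.23 (adjusted p = 0.00158) but was detected on 1 untreated array and no MMC array, a bound of at least 1.01-fold lower. PIF1, a DNA helicase, was detected on all 3 untreated arrays (6.91, 7.07 and 7.22) and on no MMC array (6.34, 6.15 and 6.36), at least 1.54-fold lower. ZFP1, a zinc finger protein, was at least 1.22-fold lower, FAM151B at least 1.09-fold and TBC1D17, a RAB GTPase-activating protein, at least 1.06-fold. RDH12, a retinol dehydrogenase, changed by -0.76 ± 0.18, MFSD12, a lysosomal transporter, by -0.72 ± 0.16, REM2, a small GTPase, by -0.70 ± 0.22, and DDX11, a helicase of sister chromatid cohesion, by -0.69 ± 0.20. Leaving out any 1 experiment ended the calls of PIF1, FAM151B, REM2 and DDX11. The call of ZFP1 did not hold without experiment 1, those of RDH12 and MFSD12 without experiment 2, and that of TBC1D17 without experiment 2 or 3. NME5 and SLC38A4 passed the test but were detected on no control siRNA array, so no size is given. Of the 15 largest falls, WDR24, MIX23, INSIG1, SQLE and ASNS also passed without the pair terms.

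Cholesterol synthesis genes fell at 5 of 18 measured members and rose at 1, with a median of -0.24. These are 27.8% lower and 5.56% higher, against 3.92% and 6.17% of all genes tested. INSIG1, which retains the sterol sensor SCAP in the endoplasmic reticulum, was at 10.53, 10.12 and 9.99 untreated and at 9.42, 9.55 and 9.37 with MMC. The MMC arrays were alike while the untreated arrays spread, and INSIG1 fell by 0.76 on the log2 scale (SE 0.12, adjusted p = 1.14e-04). SQLE, the squalene epoxidase, was at 9.85, 9.75 and 9.54 untreated and at 9.34, 8.96 and 8.74 with MMC, a change of -0.70 ± 0.10 (adjusted p = 2.89e-05). DHCR7, which makes cholesterol in the last step, changed by -0.43 ± 0.13, MSMO1, a sterol methyl oxidase, by -0.41 ± 0.11, and EBP, a sterol isomerase, by -0.36 ± 0.10. TM7SF2, a sterol reductase of the same pathway, rose by 0.33 ± 0.09. MSMO1 changed by -0.253 without experiment 1 (adjusted p = 0.31) and by -0.617 without experiment 2. HMGCS1, the synthase at the head of the pathway, changed by -0.12 ± 0.09 (adjusted p = 0.484). The calls for DHCR7, MSMO1, EBP and TM7SF2 did not hold without the pair terms.

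The list of ATF4 and unfolded protein genes was split, with 4 of 29 measured genes higher and 5 lower, and a median of -0.09. These are 13.8% higher and 17.2% lower, against 6.17% and 3.92% of all genes tested. ASNS, the asparagine synthetase, was at 12.26, 12.01 and 12.06 untreated and at 11.65, 11.24 and 11.44 with MMC, 1.59-fold lower (-0.67 ± 0.09, adjusted p = 6.85e-06). SLC7A5, a leucine transporter, was at 11.95, 11.87 and 11.60 untreated and at 11.57, 11.66 and 10.87 with MMC, where experiment 3 fell furthest. Its change was -0.45 ± 0.09 (adjusted p = 0.00123), and -0.30 without experiment 3 (adjusted p = 0.089). The serine pathway enzymes PHGDH and SHMT2 changed by -0.33 ± 0.08 and -0.25 ± 0.08, and ATF4 itself by -0.22 ± 0.07 (adjusted p = 0.0491). The higher members were SESN2, NUPR1, a stress-induced chromatin protein (1.02 ± 0.18), DDIT4, an inhibitor of mTORC1 (0.81 ± 0.08), and PSAT1, another serine pathway enzyme (0.27 ± 0.08, or 0.143 without experiment 1, adjusted p = 0.443). SESN2 is also in a p53 list. SLC7A5, PHGDH, SHMT2, ATF4 and PSAT1 did not pass without the pair terms.

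**Figure D2:**
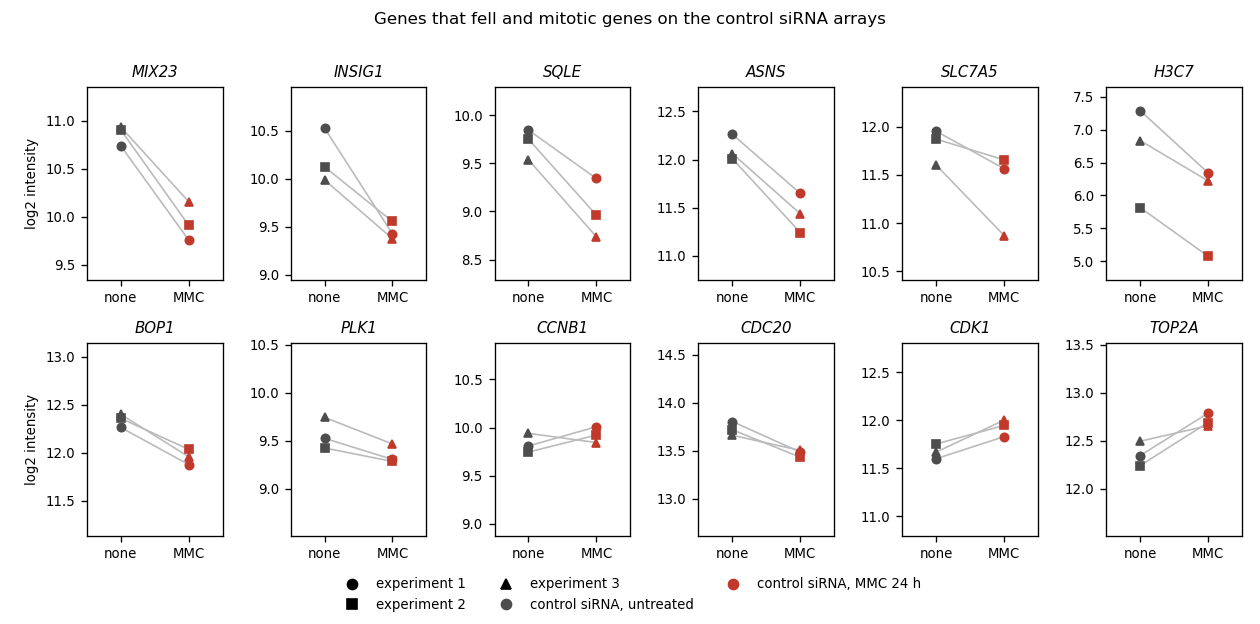
Normalized log2 intensity on the 6 control siRNA arrays for 7 genes that fell and 5 mitotic genes, untreated (grey) and after 24 hours of MMC (red), with lines joining the arrays of an experiment. The lines of MIX23, INSIG1, SQLE and ASNS all descend, and those of CCNB1 cross.

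A minority of histone and ribosome biogenesis genes fell, by small amounts. Of all genes tested 6.17% were higher and 3.92% lower. Of 16 measured replication-dependent histones 4 were lower and 0 higher, with a median of -0.12. H4C12 changed by -0.61 ± 0.13, from 8.05, 7.79 and 7.96 to 7.50, 7.20 and 7.27, and H2AC20 by -0.54 ± 0.10, from 10.59, 10.71 and 10.56 to 10.14, 10.001 and 10.10. H4C3, at the top of the intensity scale, changed by -0.27 ± 0.07, and H3C7, detected on 2 of 3 untreated arrays and on no MMC array, was at least 1.15-fold lower. Histone genes of a class are near copies of each other, so these probes may share transcripts. Of 37 measured ribosome biogenesis genes 7 were lower and 0 higher, with a median of -0.20, and 36 of the 37 had a change under 0. Over all genes tested 4379 of 9409 had a change above 0. BOP1, which processes ribosomal RNA precursors, went from 12.26, 12.36 and 12.40 to 11.88, 12.04 and 11.96 (-0.38 ± 0.08, adjusted p = 0.0014). NIP7 changed by -0.36 ± 0.08, NOP56 by -0.32 ± 0.08 and DKC1, which makes pseudouridine, by -0.31 ± 0.08. None of the histone and ribosome biogenesis genes named here passed without the pair terms. The ribosomal proteins themselves had 1 of 66 lower (RPL29, -0.30 ± 0.09) and 0 higher, with a median of 0.04. All 7 measured metallothioneins had a change under 0 and 3 of them passed, MT1G (-0.34 ± 0.09), MT1H (-0.32 ± 0.09) and MT1F (-0.29 ± 0.07).

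Mitotic genes, like most genes tested, were close to their untreated levels after 24 hours. Of 65 measured, 3 were higher (4.62%) and 2 lower (3.08%), against 6.17% and 3.92% of all genes. The median change of the 65 was -0.04, and for 64 of them the 95% interval of the change lay within 1.5-fold either way. Such an interval was also seen for 7926 of the 9409 genes tested. PLK1, the polo-like kinase of mitotic entry, was at 9.52, 9.42 and 9.74 untreated and at 9.30, 9.28 and 9.47 with MMC, and its change of -0.21 ± 0.11 did not pass (adjusted p = 0.254). CCNB1, the cyclin that drives mitosis, was at 9.81, 9.75 and 9.94 untreated and at 10.01, 9.92 and 9.84 with MMC (0.09 ± 0.10, adjusted p = 0.63). The groups overlapped for both genes. CDC20, which switches on the anaphase-promoting complex, changed by -0.25 ± 0.08 (adjusted p = 0.0382) and ANLN, a scaffold of the cleavage furrow, by -0.31 ± 0.10 (adjusted p = 0.0415). CDK1, the kinase bound by cyclin B, changed by 0.25 ± 0.08 (adjusted p = 0.0442), UBE2C by 0.34 ± 0.08 and TOP2A, the topoisomerase of chromosome condensation, by 0.35 ± 0.08. None of these 5 passed without the pair terms, and CDK1, ANLN, TOP2A and UBE2C did not pass with median scaling.

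DNA replication genes had 3 of 48 higher (6.25%) and 2 lower (4.17%), near the shares of all genes (6.17% and 3.92%). The median change of the 48 was -0.04. TYMS, the thymidylate synthase, rose by 0.56 ± 0.08 from 13.28, 12.94 and 13.22 to 13.81, 13.66 and 13.65 (adjusted p = 2.18e-05). GINS4, of the replicative helicase, rose by 0.55 ± 0.10, and PCNA is described above. DUT, which removes dUTP, changed by -0.55 ± 0.11, and MCM6, of the same helicase as GINS4, by -0.41 ± 0.08, from 12.81, 12.76 and 12.84 to 12.24, 12.48 and 12.46. The G1 and E2F list had 3 of 26 higher and 4 lower. E2F7, a repressor that is itself a p53 target, rose by 0.70 ± 0.09 from 9.37, 9.67 and 9.72 to 10.06, 10.47 and 10.34. TFDP2, an E2F partner, rose by 0.45 ± 0.13, while E2F5 and the inhibitor CDKN2D changed by -0.34 ± 0.09 and -0.50 ± 0.11. CCNE1, the cyclin of S phase entry, changed by -0.22 ± 0.09 and did not pass (adjusted p = 0.148). Of the genes called in this list and the replication list and named here, TYMS and MCM6 passed without the pair terms.

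Apart from the p53 repair targets, few repair and checkpoint genes passed, and few did among all genes tested (6.17% higher and 3.92% lower). Shares higher and lower were 8% and 0% for Fanconi and crosslink repair and 11.8% and 0% for nucleotide excision repair. They were 4.35% and 8.7% for base excision and mismatch repair and 4.55% each way for checkpoint genes. Of 27 measured homologous recombination genes 0 passed in limma in either direction, 3 had an unadjusted p under 0.05, and the 95% interval of all 27 lay within 1.5-fold either way. Over all 9409 genes tested, 2204 had an unadjusted p under 0.05 in limma and 7926 had such an interval. BRCA1 was at 8.90, 9.18 and 8.92 untreated and at 8.85, 9.12 and 9.33 with MMC (0.10 ± 0.12, adjusted p = 0.694). Of 25 Fanconi and crosslink repair genes 2 were higher. These were REV3L, the catalytic subunit of translesion polymerase zeta (0.56 ± 0.13, adjusted p = 0.00474), and RAD51C, which acts in crosslink repair (0.32 ± 0.08, adjusted p = 0.00791). Of 17 nucleotide excision repair genes 2 were higher, ERCC5 (0.34 ± 0.10), a nuclease that is also in the p53 lists, and GTF2H5 (0.30 ± 0.08), a subunit of TFIIH. Base excision and mismatch repair had APTX higher (0.52 ± 0.10) and UNG, the uracil glycosylase, and MSH3 lower (-0.50 ± 0.08 and -0.25 ± 0.08) of 23, while the mean over the probes of MSH3 was -0.11 (adjusted p = 0.389). Among 22 checkpoint genes CHEK2, the effector kinase of ATM, rose by 0.39 ± 0.10 (adjusted p = 0.0111) and TIPIN, a fork protection factor, changed by -0.44 ± 0.10. CHEK1, the effector kinase of ATR, changed by -0.16 ± 0.09 (adjusted p = 0.287) and H2AX, the histone phosphorylated at breaks, by -0.29 ± 0.10 (adjusted p = 0.0715). None of the genes called in this paragraph passed without the pair terms.

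Inflammatory and early-response genes rose at scattered members, set beside 6.17% higher and 3.92% lower of all genes tested. The shares higher and lower were 20% and 6.67% for immediate early, 21.1% and 0% for interferon and 14.3% and 0% for NF-kB genes. FOSL1, a partner of JUN, was detected on no untreated array (5.09, 5.19 and 5.26) and on all 3 MMC arrays (6.79, 6.55 and 6.54), at least 1.06-fold higher (adjusted p = 1.26e-05). The fitted rise was 1.45 ± 0.20, and 0.43 in the authors' processed values. It was among 6 of 30 immediate early genes that were higher, with 2 lower and a median of -0.01. FOS was at 8.99, 6.29 and 6.75 untreated and at 9.44, 6.65 and 7.18 with MMC, so experiment 1 was far above the others in both groups, and the rise of 0.41 ± 0.12 was seen only within pairs. JUND rose by 0.30 ± 0.08, or by 0.164 without experiment 2 (adjusted p = 0.4), and KLF2, a transcription factor, changed by -0.45 ± 0.09. Of 19 interferon response genes 4 were higher and 0 lower, with a median of 0.16. TAP1, the peptide transporter of antigen presentation, rose by 0.75 ± 0.09 from 9.30, 9.41 and 9.10 to 10.14, 10.18 and 9.73. PSMB8, an immunoproteasome subunit, rose by 0.46 ± 0.12, or by 0.312 over the mean of its probes (adjusted p = 0.102). IFIT3 was at least 1.28-fold higher and HERC5 at least 1.23-fold, both detected on no untreated array, and without experiment 2 the IFIT3 change was 0.56 (adjusted p = 0.159). Of 14 NF-kB genes 2 were higher, IRF1 (0.53 ± 0.11) and TNFAIP2 (0.84 ± 0.16), and NFKBIA, the inhibitor of NF-kB, changed by 0.24 ± 0.08 (adjusted p = 0.0503). FOSL1 was the 1 called gene among those named here that passed without the pair terms.

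Energy, chaperone and transport genes changed at few members, set beside 6.17% higher and 3.92% lower of all genes tested. Shares higher and lower were 1.64% and 0% for oxidative phosphorylation and 10.7% and 3.57% for glycolysis. They were 0% and 5.26% for heat shock and 0% and 8.11% for mRNA export. Of 61 oxidative phosphorylation genes 1 was higher (NDUFA11, 0.23 ± 0.07, or 0.152 with median scaling, adjusted p = 0.472) and the 95% interval of all 61 lay within 1.5-fold. Among all 9409 genes tested 7926 had an interval within 1.5-fold. Of 28 glycolysis genes 3 were higher, PFKL (0.37 ± 0.11), PFKFB3 (0.27 ± 0.08) and HK1 (0.26 ± 0.08), and HK2 was lower (-0.45 ± 0.13). Over the mean of their probes HK2 changed by -0.255 (adjusted p = 0.19) and PFKFB3 by 0.202 (adjusted p = 0.158), and without experiment 1 PFKL changed by 0.223 (adjusted p = 0.358). Of 19 heat shock genes 1 was lower, CHORDC1 (-0.34 ± 0.09). Of 37 mRNA export genes 3 were lower, THOC1 (-0.35 ± 0.09), EIF4A3 (-0.28 ± 0.08) and NXT1 (-0.26 ± 0.08), and 0 were higher. Of 5 measured nuclear RNAs RN7SK (0.51 ± 0.12) and SNORD13 (0.61 ± 0.14) were higher, transcripts that stay mostly in the nucleus. Among the cell type markers KRT19 rose by 0.36 ± 0.08, KRT8 by 0.28 ± 0.08 and ACTA2, a smooth muscle actin, by 0.35 ± 0.09, and CD68 changed by -0.64 ± 0.18. Another CD68 probe changed by -0.03. Without experiment 1 KRT8 changed by 0.184 (adjusted p = 0.297) and CD68 by -0.417 (adjusted p = 0.291), and without experiment 3 RN7SK changed by 0.325 (adjusted p = 0.207). None of the genes called among these energy, chaperone, transport, nuclear and marker lists and named here passed without the pair terms, nor did RPL29 and the metallothioneins.

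**Figure D3:**
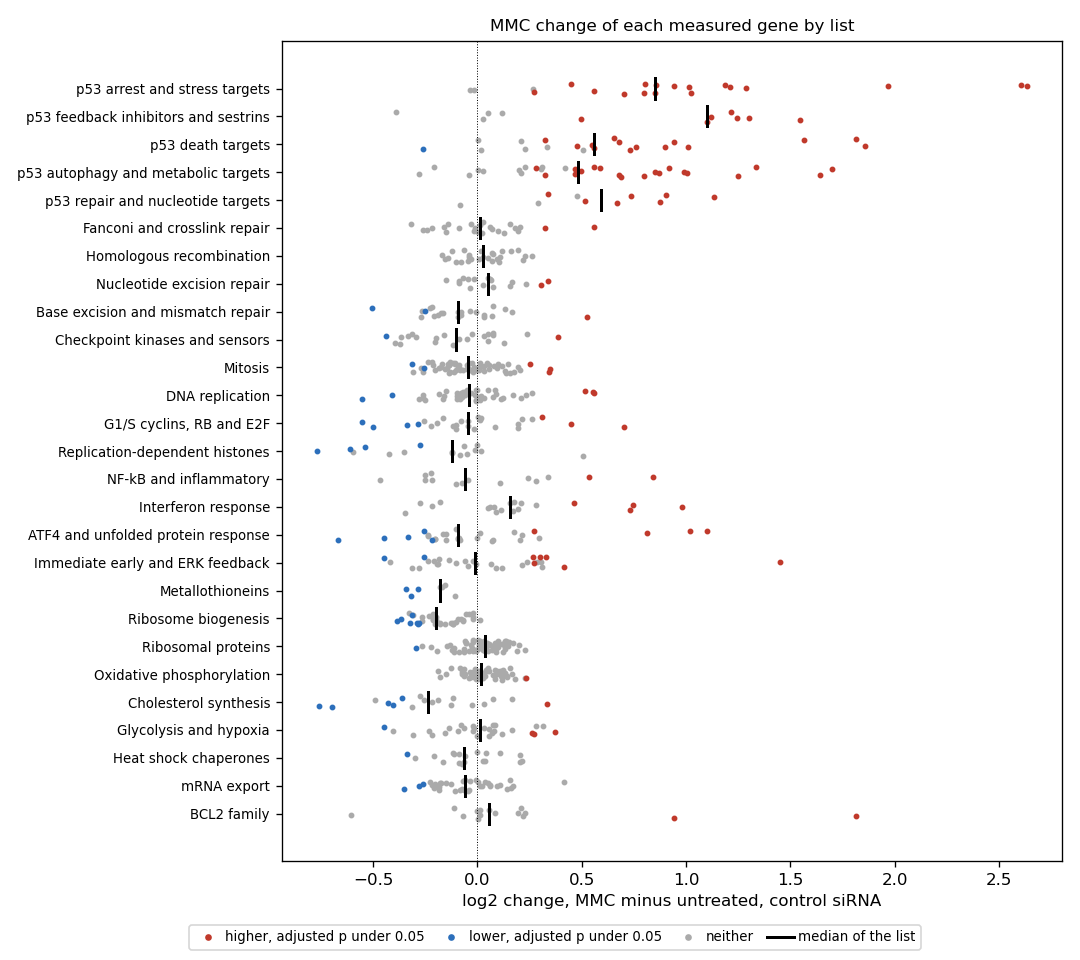
Log2 MMC change under control siRNA of every measured gene in each list other than the cell type markers and the nuclear RNAs, with genes that passed as higher in red, as lower in blue and the others in grey, and a black bar at the median of the list. The medians of the 5 p53 lists lie between 0.48 and 1.10, and those of the other lists plotted between -0.24 and 0.16.

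The same genes were then read in the siIPMK arrays. Their values are not part of the control siRNA changes, but both siRNAs share the normalization, the detection filter and the estimate of the spread. There, 278 genes passed (2.95% of those tested), 184 of them higher with MMC (1.96%) and 94 lower (0.999%). Of the 581 rises with control siRNA, 143 were also called with siIPMK, which is 24.6% of the control list and 77.7% of the siIPMK list. A change above 0 was seen for 529 of the 581 (91%), where 49.7% of all genes had a change above 0. Of the 369 falls, 23 were called in both, 6.23% and 24.5% of the lists, and 280 (75.9%) had a change under 0, against 50.3% of all genes. The changes were smaller with siIPMK. The median over the control siRNA rises was 0.51 there and 0.23 with siIPMK, and over the falls -0.37 and -0.11. These genes were chosen for their change with control siRNA, so the medians are no test of the difference.

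The difference between the changes was tested for each gene, and 60 of 9409 (0.638%) passed, 49 above 0 and 11 under 0. Of the called rises 46 passed this test and of the called falls 8, each with the larger change under control siRNA. That direction follows from calling the genes on their control siRNA change and is no result of its own. CDKN1A rose by 1.97 with control siRNA and by 0.93 ± 0.09 with siIPMK, a difference of 1.04 ± 0.13 (adjusted p = 7.93e-05). CROT rose by 1.45 and 0.41, with the lowest p of all differences (1.04 ± 0.12, adjusted p = 6.81e-05). BAX rose by 0.94 with control siRNA and changed by 0.18 ± 0.08 with siIPMK (difference 0.77 ± 0.11, adjusted p = 4.85e-04). INKA2, MYBPHL and DPYSL4 were the other genes with the lowest p. The difference for DPYSL4 was 1.00 ± 0.14, and those for INKA2 and MYBPHL give no size, since 1 and 0 of 3 untreated control siRNA arrays detected them. Of the 92 measured p53 targets 34 were higher with siIPMK, with a median of 0.32, and 15 had a difference that passed, with the larger change under control siRNA. Other p53 targets were not told apart. SFN rose by 1.02 and 1.01 (difference 0.01 ± 0.17, adjusted p = 0.986), E2F7 by 0.70 and 0.82 (adjusted p = 0.785) and ZMAT3 by 1.01 and 0.82 (adjusted p = 0.597). MIX23 changed by -0.92 with control siRNA and by -1.14 ± 0.10 with siIPMK (adjusted p = 0.596). Without the pair terms 0 genes passed the test of the difference in limma, and 327 had an unadjusted p under 0.05. Leaving out both siIPMK arrays of experiment 1 gave 148 genes with a difference that passed, and leaving out those of experiment 2 gave 28.

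**Figure D4:**
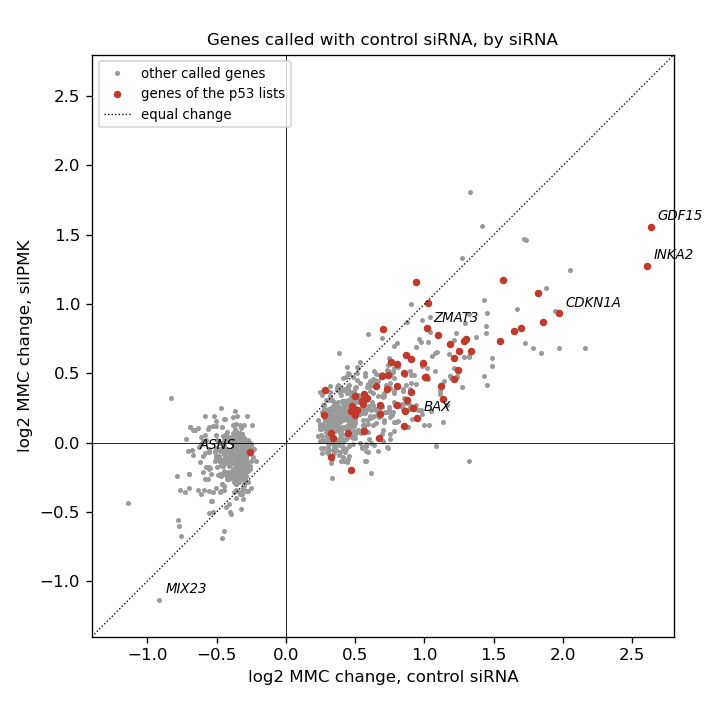
Log2 MMC change of the 950 genes called with control siRNA, with control siRNA on the x axis and siIPMK on the y axis, p53 targets in red and a dotted line at equal change. Most rises lie between 0 and the dotted line, CDKN1A at 1.97 and 0.93, and MIX23 lies below the line at -0.92 and -1.14.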

How the data were processed

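Cytoplasmic RNA was hybridised to Illumina bead arrays. The table of the authors' deposited intensity values lists 48802 probes, each with a mean intensity and a detection p-value on every array, per the file headers. Any background subtraction by the scanner's software is not given in the sources used here. A second table holds the authors' processed log2 values, made with lumi per the submitters' processing notes, whose exact transform is not given in the sources used here. It served as an alternative.

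limma 3.58.1 (R 4.3.3) was used. Its neqc function estimated the background from the detection p-values, set an offset of 16 and gave quantile-normalized log2 values for all 12 arrays together. A probe was kept if at least 3 of 12 arrays had its detection p below 0.01. This left 13830 probes, of which 12086 had 1 gene symbol in GEO's platform annotation, 2 had several and 1742 are unnamed here. Symbols were updated through Entrez identifiers where RefSeq held them (12083 probes). The probe with the highest mean signal stood for its gene, which gave 9409 genes, 2219 of them with more than 1 probe.

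A linear model with a term for each pair of arrays (6 pairs) and an MMC term for each siRNA was fitted to all 12 arrays, with variances moderated along a trend in mean signal and 4 residual degrees of freedom. Adjusted p-values are limma's, by Benjamini-Hochberg over all genes. Errors of changes are standard errors of this fit, pooled over both siRNAs and moderated with a mean of 20.8 prior degrees of freedom. They can be smaller than the spread of a gene's own pairs. The pairing comes from the experiment numbers in the titles. Deviations from the group means of same-numbered untreated and MMC arrays correlated across genes at 0.486, 0.193 and 0.419 with control siRNA. With siIPMK they correlated at 0.704, 0.545 and 0.346. Differently numbered arrays correlated at -0.409 to 0.067 with control siRNA and at -0.639 to 0.419 with siIPMK. With siIPMK, untreated 3 with MMC 2 (0.419) and untreated 2 with MMC 3 (0.363) exceeded the lowest same-numbered value. Centring on the group means lowers the values of differently numbered arrays, so the comparison is no test of the pairing. The number of arrays limits the precision. On simulated data for the control siRNA comparison with 9409 genes, 100% of changes of 1 log2 unit and 67% of changes of 0.5 were recovered. Of the simulated calls 5.11% were false. These rates describe the simulated data only. They are not the rate of false calls among the genes reported here, whose number depended on the pair terms.

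The members and the 31 gene lists were chosen with earlier results of these data known. Genes were named by a rule: the 15 largest rises and falls with no overlap of arrays, the 4 lowest p values in each list, a set of fixed genes, and the 5 lowest p values for the difference between siRNAs. Others, such as SIVA1, GADD45A, KITLG, SLC7A5, S100Z and the further members of the p53, cholesterol, histone, replication and repair lists, were added after their values were seen. Alternatives covered the pairing, the arrays fitted, background, scaling, detection filter, probe choice, the authors' values and each experiment left out.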

Additional observations from a re-analysis of the deposited data

Results flagged for a closer look

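The MMC change differed between control siRNA and siIPMK for 24 of the 177 genes examined by name, by the test of the difference at an adjusted p under 0.05 in limma, and in all 24 the change was larger in size with control siRNA. Over all genes tested 60 of 9409 passed this test (0.638%), and 0 did without the pair terms. Most of the 24 genes were named for their change with control siRNA, which favours that direction. A further 5 namings were for the lowest p of this same test, so the share among the 177 is no result of its own. Differences are control siRNA minus siIPMK on the log2 scale, with 3 pairs of arrays for each siRNA.

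Among p53 targets of arrest and stress the differences were 1.33 for INKA2, 1.08 for GDF15, 1.04 for CDKN1A and 0.75 for TOB1. Among feedback genes they were 0.81 for SESN1 and 0.61 for TP53INP1. Among death targets they were 0.98 for PHLDA3, 0.77 for BAX and 0.74 for PMAIP1. The metabolic targets DRAM1, CMBL and TIGAR differed by 0.87, 0.59 and 0.53, and the repair targets XPC and RPS27L by 0.82 and 0.64. RPS27L rose by 0.67 with control siRNA and changed by 0.03 with siIPMK.

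Outside the p53 lists the difference was 1.47 for MYBPHL, 1.46 for S100Z, 1.29 for DENND2D, 1.19 for CFAP144, 1.10 for SYTL1, 1.04 for CROT, 1.00 for DPYSL4 and 0.66 for DDIT4. These are fitted values. MYBPHL, S100Z, DENND2D and CFAP144 were detected on no untreated control siRNA array and SYTL1 and INKA2 on 1 of 3, so their differences are not sizes of effect. S100Z, a calcium-binding protein, was at least 1.62-fold higher with MMC under control siRNA and changed by -0.13 with siIPMK. ASNS and KLF2, which were lower with MMC under control siRNA, had differences of -0.58 and -0.62, and with siIPMK they changed by -0.09 and 0.17.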

How the results depend on the processing

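Among genes called both in the main setting and in an alternative, 0 were called in opposite directions in the control siRNA comparison, while the counts moved. Genes that lost their call do not enter this count. Without the replicate block the fitted changes are the same by design, so no direction could turn there. Without the replicate block, which drops the terms for pairs of arrays, rises went from 581 to 184 and falls from 369 to 10 with control siRNA, from 184 to 33 and from 94 to 1 with siIPMK, and the test of the difference from 60 to 0. The cause was not tested. With only the 6 control siRNA arrays, which leaves 2 residual degrees of freedom, falls were 601 and rises 752. Median scaling gave 334 rises with control siRNA, 96 rises and 48 falls with siIPMK, and 38 differences, and moved the median of all genes from -0.016 to -0.0625. The mean over the probes of a gene gave 36 differences. Rises made up 61.2% of the calls with control siRNA, 94.8% without the block and 71.4% to 76.1% with an experiment left out. Leaving out each control siRNA experiment gave 322 to 366 rises, 115 to 137 falls and 25 to 34 differences. Leaving out each siIPMK experiment, an alternative added after seeing the data, gave 110 to 181 rises and 37 to 99 falls with siIPMK and 28 to 148 differences. Of the p53 targets 64 were higher, 41 without the block, 57 with median scaling and 56 to 57 with an experiment left out. Among the 177 genes examined by name signs turned for 3, none of which passed: BRCA1 at -0.0572 without experiment 3 (0.173 without experiment 2), RPL41 at -0.0733 over the mean of its probes and TUG1 at -0.0249 with median scaling. Sizes of dim genes shrank without background correction, MYBPHL from 2.16 to 1.35 and MDM2 from 1.25 to 0.62. In the authors' processed values ATF3 rose by 0.447, NUPR1 by 0.401 and RETSAT by 0.457, against 0.942, 1.02 and 0.870 in the main setting. The counts of genes at 2-fold rest on the background-corrected values of the main setting. A slide block was not run because no slide is named. Genes detected on no array of a group have bounds, and any fitted change printed for them is no size.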
